A study of Mus musculus with 158 samples.

Results

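Pool 17 held 54 short hairpin RNAs (shRNAs) against 21 genes, out of 1000 targeting hairpins against 285 genes that were screened in 19 pools. Its members were all hairpins that the deposited tables assign to this pool, whatever their values. PDA530 Met, a mouse pancreatic ductal adenocarcinoma line taken from a liver metastasis, was infected with the pool's virus at a multiplicity of infection of 0.3 and selected for 4 days in puromycin at 3 µg/ml. Pool 17 was then measured in 9 libraries. Cells pelleted before injection (day 0, 17A to 17C) were the starting population. Lungs 17A to 17C were taken on day 28 from 3 mice injected through the tail vein, and the tumours of each animal were combined into 1 DNA sample. Cultures 16/17A to 16/17C were grown in triplicate for the same 28 days, and each of these libraries held pools 16 and 17 together. All groups carried the same selection and came from 1 cell line, and every library was made by amplifying hairpins from genomic DNA in a 2-step PCR without molecular identifiers. The labels of the day 0 libraries do not say whether they came from separate cultures, so their spread, and the p-values that rest on it, may be technical.

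A short hairpin RNA is processed by the cell into a small interfering RNA that lowers the mRNA of its target gene. Because the hairpin is integrated into the genome, its sequence also serves as a tag for the descendants of each infected cell. In a pooled screen a hairpin that slows growth becomes rarer and one that favours growth becomes more common, and several hairpins per gene are used because single hairpins can fail or can act on other transcripts. After tail-vein injection cells must lodge in the lung and grow there to form tumours, a common model of metastatic colonisation.

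The targets fall into 6 groups by what is known of them. Chromatin and transcription genes are Chd7 (an ATP-dependent chromatin remodeller), Pbrm1 (a subunit of the PBAF chromatin-remodelling complex and a kidney cancer tumour suppressor), Myst4 (now Kat6b, a histone acetyltransferase), Cramp1l (the mouse counterpart of the fly Polycomb-group gene cramped), Klf6 (a zinc-finger transcription factor) and Vgll4 (a TEAD cofactor that opposes YAP). Dlc1, a tumour suppressor, Sipa1l2, a Rap GTPase-activating protein, Nav3, a microtubule-associated protein, and Xirp2, an actin-binding protein of striated muscle, form a group of small GTPase and cytoskeletal genes. Nup133 (a scaffold of the nuclear pore), Dctn4 (a dynactin subunit) and Golt1b (a Golgi transport protein) serve transport. Mrps7 belongs to the mitochondrial ribosome and Ndufb2 to respiratory complex I. Nt5e, the cell-surface enzyme CD73 that makes adenosine, and Lrrtm4, a synaptic adhesion protein, are surface proteins. C77370 (now Nexmif, which is linked to neurite extension), Ccdc141, Ccdc63 and Prr12 were grouped as others. Of the 21 genes, 5 had 4 hairpins, 5 had 3, 8 had 2 and 3 (Mrps7, Myst4 and Nt5e) had 1.

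The libraries held between 4500424 and 8720796 reads in all, of which hairpins of pool 17 took 4945854 to 5475629 at day 0, 2582835 to 2944751 in culture and 2520203 to 7291974 in lungs. Hairpins of other pools took 0.142% to 0.972% of the reads at day 0. They took 18.7% in lungs 17A and 3.16% in lungs 17B, against 0.348% in lungs 17C, and 15.3% in culture 16/17A beside at most 0.229% in the other cultures (pool 16 not counted there). Pool 10 made up most of this in lungs 17A, with 14.5% of reads, and in culture 16/17A, with 14.9%. Lungs 17A also held 3.55% of reads from pool 18, and lungs 17B held 1.25% from pool 16, 1.03% from pool 18 and 0.733% from pool 10. All shares below are therefore percentages of the pool 17 reads of a library. The 8 control hairpins present in every pool took 20.6% to 21.1% of reads at day 0, 16.0% to 17.1% in culture and 16.0% to 25.3% in lungs. At these depths 3 reads make up at most 0.000119% of a library's pool 17 reads. Limits of this kind cover counting error only.

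At day 0 the pool was broad and its libraries were alike. The effective number of hairpins (the exponential of the Shannon entropy of the shares, equal to the hairpin count when all shares are equal) was 31.5, 30.0 and 32.6 in the 3 day 0 libraries, a mean of 31.4 ± 1.30 (SD, n = 3). No hairpin exceeded 6.91% of a day 0 library, and the 5 most common ones together took 30.0% ± 1.40 (SD, n = 3). Culture narrowed the pool in each library, to an effective number of 16.5, 17.3 and 18.7 (17.5 ± 1.10), with 59.7% ± 2.20 of reads in the 5 most common hairpins. The 3 lungs gave 15.2, 22.9 and 23.8 (20.6 ± 4.70), the lowest being lungs 17A. On the log2 scale the effective number fell short of day 0 by a difference of -0.63 in lungs and -0.84 in culture, with no overlap between groups. Each of these had a two-sided exact permutation p of 0.1, the smallest that 3 against 3 libraries can give. Lungs and culture overlapped, with a difference of 0.21 (exact permutation p = 0.4). In every other pool with the groups compared, the mean effective number was also lower than at day 0 in culture and in lungs. From the lowest mean, pool 17 ranked 3 of 18 pools in culture and 6 of 17 in lungs.

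The same hairpin led all 3 cultures, whereas the leading hairpin was not the same in all 3 mice, nor in the day 0 libraries, which Prr12, Ccdc141 and Nt5e hairpins led with 6.68%, 6.91% and 6.35%. TRCN0000288305 against Nt5e led all 3 cultures with 21.6%, 22.1% and 22.6% of reads, and 9 hairpins were among the 10 most common in all 3 cultures. In the mice 7 hairpins were among the 10 most common of all 3 lungs, and 15 entered the list in at least 1 lung. TRCN0000239115 against C77370 led lungs 17A with 26.7% and lungs 17B with 9.33%, while TRCN0000252353 against Prr12 led lungs 17C with 11.2%. Hairpins that ranked among the 10 most common in 1 mouse alone included TRCN0000251409 against Xirp2, at 2.01%, 8.05% and 2.57% in lungs 17A, 17B and 17C, and TRCN0000269175 against Ccdc141, at 13.2%, 2.57% and 1.27%.

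Differences between mice were large compared with those between the other libraries. The highest share of a hairpin exceeded the lowest by a median factor of 1.20 between day 0 libraries, 1.87 between cultures and 4.01 between lungs. In lungs this factor passed 10 for 15 of 53 hairpins and 100 for 4, against 2 of 54 hairpins past 10 in culture and none at day 0. The widest case was TRCN0000287535 against Ndufb2, which took 0.000159% of lungs 17A, 0.511% of lungs 17B and 0.248% of lungs 17C after 0.614% to 0.645% at day 0. TRCN0000246815 against Nup133 took 0.00302%, 0.000135% and 0.236% in the 3 lungs. The spread was wider among hairpins that started rare: between lungs the median factor was 6.06 for those under 0.888% at day 0 and 3.43 for the others, which started at 1.00% or more. The same split gave 2.79 and 1.40 in culture and 1.47 and 1.12 at day 0. Pearson correlations of log2 values across hairpins were 0.986 to 0.989 between day 0 libraries, 0.933 to 0.972 between cultures and 0.800 to 0.854 between lungs; hairpins of 1 library share its depth and are not independent replicates.

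Which hairpins changed between injection and lung tumours was asked first. In lungs 14 of 54 hairpins differed from day 0 (limma, Benjamini-Hochberg adjusted p under 0.05 over the 891 hairpins of all pools), 5 higher and 9 lower. That is 25.9% of the pool, beside 33.8% of hairpins over all pools (14.7% higher and 19.1% lower), so the share called was not particular to pool 17. Among the hairpins called, the largest rises belonged to Dctn4, Cramp1l and C77370 hairpins, and the clearest fall to a hairpin against Pbrm1. Fold changes here are on the log2(CPM + 1) scale with TMM factors, which set each hairpin against the bulk of pool 17. The median change was 0.01 on this scale and -0.65 when shares of the pool total were used, where 2 hairpins were higher and 11 lower, beside 38.2% called over all pools (9.32% higher and 28.8% lower). Shares did not overlap between lungs and day 0 for 27 hairpins (50%, against 59.9% over all pools), 6 above and 21 below, beside 14.1% above and 45.8% below over all pools.

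Among transport genes, Dctn4 gave calls in both directions. TRCN0000295652 took 1.56%, 1.30% and 1.74% of reads at day 0 and 4.41%, 5.71% and 4.58% in the 3 lungs. Every lung stood above every day 0 library, and the log2 fold change was 2.34 (SE 0.31, limma adjusted p = 0.00222). Its companion TRCN0000295651 started at 4.93%, 5.26% and 4.85% and took 0.931%, 1.32% and 2.70% of the lungs, a log2 fold change of -1.09 (SE 0.33, limma adjusted p = 0.0422). The 2 Dctn4 hairpins thus moved in opposite directions in the same animals. TRCN0000246814 against Nup133 was the most reduced hairpin of the pool, with 46410, 46182 and 64121 reads at day 0 and 10, 24 and 7437 reads in lungs. As shares these were 0.938%, 0.898% and 1.17% at day 0 and 0.000397%, 0.000647% and 0.102% in lungs. The log2 fold change was -7.60 (SE 1.91, limma adjusted p = 0.0245), with 2 mice nearly without the hairpin and lungs 17C at a low share. Its size depended on the method: -4.55 with edgeR, -4.67 with DESeq2, -5.10 with a pseudocount of 100, and -6.30, -6.51 and -9.86 without lungs 17A, 17B and 17C. The other Nup133 hairpins had log2 fold changes of -3.53 and -1.40 that did not pass, and both were also lower in lungs 17A and 17B than in 17C. Of the Golt1b hairpins, TRCN0000305016 fell, from 0.695%, 0.564% and 0.818% to 0.0892%, 0.291% and 0.146% (log2 fold change -1.48, limma adjusted p = 0.0432), and TRCN0000308352 had a value of -0.10 (adjusted p = 0.861).

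Among chromatin and transcription genes 2 of 15 hairpins rose and 2 fell, where 14.7% were higher and 19.1% lower over all pools. TRCN0000304681 against Pbrm1 held 4.73%, 4.87% and 4.51% of reads at day 0 and only 0.112%, 0.102% and 0.350% in lungs, so that it went from the sixth most common hairpin to a minor one in each mouse. Its log2 fold change was -4.23 (SE 0.45, limma adjusted p = 0.00106). The second Pbrm1 hairpin, TRCN0000304680, was at 0.693%, 0.488% and 1.30% after 1.54%, 1.39% and 1.69% at day 0, all lungs below all day 0 libraries, but against the bulk of the pool its log2 fold change was -0.35 (SE 0.40, adjusted p = 0.532). TRCN0000239423 against Cramp1l was the most even riser, with 4.22%, 4.54% and 4.03% at day 0 and 8.23%, 8.10% and 8.55% in lungs (log2 fold change 1.62, SE 0.33, limma adjusted p = 0.0104). TRCN0000257325 against the same gene went the other way, from 1.5%, 1.37% and 1.69% to 0.223%, 0.176% and 0.713% (log2 fold change -1.66, SE 0.49, adjusted p = 0.0407). The remaining Cramp1l hairpins, at 0.12 and 0.92, did not pass. TRCN0000238673 against Chd7 had 0.628%, 0.469% and 0.694% at day 0 and 0.761%, 1.03% and 0.785% in lungs, a log2 fold change of 1.19 (SE 0.37, adjusted p = 0.0462). TRCN0000238672 against Chd7 missed the threshold at 1.69 (adjusted p = 0.0522), and the other Chd7 hairpins had values of -1.45 and 0.59 that did not pass. Hairpins against Vgll4 (1.49 and 0.56), Klf6 (0.25 and -0.90) and Myst4 (0.21) did not pass.

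C77370 gave 3 calls among its 4 hairpins. TRCN0000239115 was the most common hairpin in lungs on average, at 26.7%, 9.33% and 10.7% after 5.50%, 6.12% and 5.29% at day 0 (log2 fold change 1.96, SE 0.60, limma adjusted p = 0.0445). The mean rose from 5.64% ± 0.43 to 15.6% ± 9.69 (SD, n = 3), with lungs 17A far above the other mice. TRCN0000239114 rose from 4.04%, 4.27% and 3.95% to 5.43%, 4.30% and 6.85% (log2 fold change 1.07, SE 0.32, adjusted p = 0.0408), and in lungs 17B it barely exceeded day 0. TRCN0000239116 fell from 1.70%, 1.62% and 1.63% to 0.264%, 0.5% and 0.604% (log2 fold change -1.28, SE 0.33, adjusted p = 0.0257). The fourth, TRCN0000239117, had a value of 1.28 that did not pass (adjusted p = 0.345). Both coiled-coil genes had 1 hairpin called lower. TRCN0000283915 against Ccdc141 was rare at day 0, with 0.0401%, 0.0260% and 0.0340%, and took 0.000952%, 0.00170% and 0.00491% in lungs (log2 fold change -3.33, SE 0.82, adjusted p = 0.0228). This call was lost without each day 0 library (adjusted p up to 0.0971) and with all 3 arms in 1 fit (adjusted p = 0.0589). Its size depended on the pseudocount, as given below. TRCN0000246366 against Ccdc63 went from 0.486%, 0.460% and 0.642% to 0.109%, 0.00771% and 0.0211% (log2 fold change -3.66, SE 1.13, adjusted p = 0.0452). Its value was -2.59 with edgeR and -2.53 with DESeq2, and it ranged from -4.79 without lungs 17A to -2.77 without lungs 17B. With 1 library left out the call was kept only without lungs 17A. The second Ccdc63 hairpin, TRCN0000246364, had a log2 fold change of -3.70 (SE 1.72, adjusted p = 0.141) that rested on 7 reads in lungs 17A; it was -1.56 without that library (adjusted p = 0.0351) and -2.21 with edgeR. None of the 4 Ccdc141 hairpins had a positive value. The 3 Prr12 hairpins had values of 0.25, 1.21 and 0.53 and none passed; by pool total they were at -0.41, 0.55 and -0.13. EdgeR called the second, TRCN0000252350, higher (adjusted p = 0.0465).

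Of the 12 hairpins against small GTPase and cytoskeletal genes, TRCN0000253359 against Sipa1l2 alone was called on the TMM scale, beside 33.8% over all pools. It went from 3.51%, 3.26% and 3.48% at day 0 to 0.238%, 0.182% and 1.24% in lungs (log2 fold change -2.52, SE 0.63, limma adjusted p = 0.0242). The other Sipa1l2 hairpins ranged from -0.85 to 1.30 and the 3 Dlc1 hairpins from -0.56 to 0.79, and those against Nav3 from -0.46 to 0.72, none of which passed. By pool total and by the deposited values TRCN0000253358 of Sipa1l2 was called lower, at -1.51 and -1.54 (limma adjusted p = 0.00703 and 0.0231). The Xirp2 hairpins had values of 0.78 and -2.85 (adjusted p = 0.29 and 0.112). The second, TRCN0000251410, was called lower by pool total (-3.51, adjusted p = 0.0408) and by the deposited values (-3.55, adjusted p = 0.0357). None of the 4 mitochondrial and 3 surface-protein hairpins was called in lungs, including TRCN0000288305 against Nt5e, which took 2.76%, 6.95% and 4.95% of the lungs after 6.56%, 6.34% and 6.35% at day 0 (log2 fold change 0.17, adjusted p = 0.745). The single Mrps7 hairpin had a value of 1.13 (adjusted p = 0.073), and the Ndufb2 hairpins -3.73, 1.77 and 1.22 (adjusted p from 0.0863 to 0.316). The first of these, TRCN0000287535, had 4 reads in lungs 17A, and its value was -0.27 without that library and -0.80 with edgeR.

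The lung calls differed in how firmly they stood. TRCN0000295652 against Dctn4, TRCN0000304681 against Pbrm1 and TRCN0000239423 against Cramp1l were called whichever of the 6 libraries was left out, with adjusted p up to 0.00958, 0.00399 and 0.0454. Of the 14 calls, 5, 5 and 4 were kept without day 0 17A, 17B or 17C, and 8, 10 and 12 without lungs 17A, 17B or 17C, and the adjusted p of lost calls was at most 0.153. The total number of calls was 5, 5 and 4 without each day 0 library and 18, 17 and 14 without each lung. EdgeR's quasi-likelihood test on the reads called 10 hairpins (18.5%, beside 31.3% over all pools), 6 higher and 4 lower, and kept 9 of the 14. The calls lost with edgeR were those against Ccdc63, Nup133, Golt1b, TRCN0000257325 of Cramp1l and TRCN0000295651 of Dctn4, with adjusted p from 0.0511 to 0.121. The DESeq2 test kept all 14 and called 23 (42.6%, beside 45.2% over all pools), 14 higher and 9 lower, where 23.9% were higher and 21.3% lower over all pools. The balance of rises and falls thus depended on the test, with a median change of 0.40 with edgeR and 0.30 with DESeq2. The rises of TRCN0000239114 (C77370) and TRCN0000238673 (Chd7) did not pass under any of the 3 other scalings, TRCN0000239115 (C77370) passed under 1 and TRCN0000239423 (Cramp1l) under 2 of them, while all 9 falls and the rise of TRCN0000295652 passed under all 3.

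Culture gave the second arm, with the same day 0 libraries as its reference, so the comparisons share their controls and their values are only set side by side. In culture 29 of 54 hairpins differed from day 0 (53.7%, beside 60.6% over all pools), 13 higher and 16 lower, where 28.8% were higher and 31.9% lower over all pools. The largest gains were those of hairpins against Vgll4, Nt5e and Nav3, and the largest losses those of hairpins against Pbrm1, Golt1b and Ndufb2. The median change was -0.01 on the TMM scale, -0.82 by shares of the pool total and -1.16 by the deposited values. With shares of the pool total the calls split into 9 higher and 30 lower, beside 65.1% called over all pools (17.2% higher and 47.8% lower). With the deposited values they split into 6 higher and 33 lower (11.1% and 61.1%), beside 66.9% called over all pools (13.8% higher and 53.1% lower). EdgeR called 29 hairpins (53.7%, beside 58.5% over all pools), 28 of them shared with limma. Shares did not overlap for 41 hairpins (75.9%, beside 69.4% over all pools), 8 above and 33 below, where 18.8% lay above and 50.6% below over all pools. Limma estimated 18.18 prior degrees of freedom in this comparison, so the smallest p-values rest on the spread of all hairpins more than on 3 libraries a group.

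All 3 hairpins against the surface proteins Nt5e and Lrrtm4 were called higher in culture, beside 28.8% of hairpins over all pools. For 1 of them the direction turned under other scalings, and hairpins against both genes in other pools fell in culture, as given below. TRCN0000288305 against Nt5e went from 6.56%, 6.34% and 6.35% to the 21.6%, 22.1% and 22.6% given above, a log2 fold change of 2.59 (SE 0.11, limma adjusted p = 1.35e-15), the smallest adjusted p of the pool. TRCN0000250010 against Lrrtm4 took 10.6%, 10.6% and 8.42% after 4.10%, 4.06% and 4.02% (log2 fold change 2.08, SE 0.14, adjusted p = 1.93e-11). The second Lrrtm4 hairpin, TRCN0000250009, was called higher at 0.63 (SE 0.15, adjusted p = 0.00127), although its share was slightly smaller, 2.46%, 2.40% and 2.38% after 2.82%, 2.88% and 2.50%. Its direction turns with the scaling, to -0.18 by shares of the pool total and -0.52 by the deposited values, and so the 2 hairpins cannot be said to rise together.

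Of the 15 chromatin and transcription hairpins 4 rose and 5 fell in culture, where 28.8% were higher and 31.9% lower over all pools. TRCN0000250410 against Vgll4 showed the largest rise of the pool, from 0.822%, 0.667% and 0.847% to 2.34%, 2.93% and 4.60% (log2 fold change 2.84, SE 0.22, limma adjusted p = 2.0e-10). Its partner TRCN0000250411 had a value of -0.19 (adjusted p = 0.497). Both hairpins against Pbrm1 fell. TRCN0000304681 went to 0.402%, 0.204% and 0.415% of the cultures from the 4.51% to 4.87% given above (log2 fold change -3.05, SE 0.24, adjusted p = 5.43e-10), and TRCN0000304680 to 0.257%, 0.358% and 0.445% (log2 fold change -1.34, SE 0.27, adjusted p = 0.00023). Both Pbrm1 calls held under each of the 3 other scalings and without any single library. The single Myst4 hairpin, TRCN0000287544, fell from 4.30%, 4.42% and 4.06% to 0.774%, 1.09% and 0.867% (log2 fold change -1.43, SE 0.18, adjusted p = 7.41e-07).

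Cramp1l hairpins were called in opposite directions in culture too. TRCN0000239425 rose from 1.59%, 1.56% and 1.89% to 4.62%, 3.54% and 4.11% (log2 fold change 2.09, SE 0.15, limma adjusted p = 1.22e-10). TRCN0000239424 was called higher at 1.01 (adjusted p = 1.32e-05) with 2.46%, 3.14% and 3.44% after 2.60%, 2.44% and 2.74%, and its sign turned to -0.13 with the deposited values. TRCN0000239423, which rose in each mouse, fell in each culture, to 1.47%, 1.52% and 1.70% (log2 fold change -0.64, SE 0.15, adjusted p = 0.00112). Chd7 also gave opposite calls. TRCN0000238673 was called higher at 0.96 (adjusted p = 0.00572), with 0.511%, 0.754% and 0.727% in culture, and turned to -0.19 with the deposited values. TRCN0000238672 was called lower at -1.09 (adjusted p = 0.0447), with 0.0415%, 0.0494% and 0.0838% after 0.228%, 0.162% and 0.245%. That call was lost without day 0 17A, 17B or 17C or culture 16/17B, with adjusted p up to 0.132, and with edgeR (adjusted p = 0.060).

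Small GTPase and cytoskeletal genes held 2 rises and 4 falls among 12 hairpins, beside 28.8% higher and 31.9% lower over all pools. TRCN0000251078 against Dlc1 rose from 0.555%, 0.371% and 0.597% to 0.485%, 1.19% and 1.51% (log2 fold change 1.75, SE 0.36, limma adjusted p = 0.000773), with culture 16/17A inside the day 0 range. TRCN0000218037 against Nav3 was rare throughout, at 0.00811%, 0.0129% and 0.0261% at day 0 and 0.0393%, 0.0296% and 0.0945% in culture (log2 fold change 2.58, SE 0.67, adjusted p = 0.00238). Neither of these rises passed with the deposited values. Sipa1l2 had 3 of 4 hairpins called lower, at -1.90, -1.32 and -0.65, and TRCN0000253356 at 0.62 did not pass (adjusted p = 0.211). TRCN0000253359, the Sipa1l2 hairpin reduced in lungs, took 0.544%, 0.590% and 0.440% of the cultures. TRCN0000251410 against Xirp2 fell from 0.334%, 0.319% and 0.417% to 0.0455%, 0.0544% and 0.0268% (log2 fold change -2.32, SE 0.45, adjusted p = 0.000149), whereas TRCN0000251409 had a value of 0.05 (adjusted p = 0.813). The latter was called lower by pool total (-0.76, adjusted p = 0.000239) and by the deposited values (-1.10, adjusted p = 4.36e-07).

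Beside 28.8% higher and 31.9% lower over all pools, none of the 7 transport hairpins rose in culture on the TMM scale and 3 fell. They were TRCN0000305016 against Golt1b, with 0.0319%, 0.0803% and 0.114% (log2 fold change -2.56, SE 0.42, limma adjusted p = 2.52e-05), TRCN0000246814 against Nup133, with 0.136%, 0.112% and 0.178% (log2 fold change -2.03, SE 0.32, adjusted p = 1.48e-05), and TRCN0000295651 against Dctn4, with 0.999%, 0.791% and 1.25% (log2 fold change -1.52, SE 0.17, adjusted p = 1.6e-07). Each had a fall in lungs as well, at -1.48, -7.60 and -1.09, measured against the same day 0 libraries. TRCN0000295652 against Dctn4, the riser in lungs, had a value of -0.01 in culture (SE 0.24, adjusted p = 0.971), with 0.643%, 0.834% and 1.19%. By pool total and by the deposited values it was called lower, at -0.82 and -1.16 (adjusted p = 0.00728 and 0.000164). Of the 3 Ndufb2 hairpins 2 fell: TRCN0000287535 from 0.645%, 0.643% and 0.614% to 0.0739%, 0.0475% and 0.0895% (log2 fold change -2.41, SE 0.36, adjusted p = 9.76e-06), and the rare TRCN0000287536 from 0.0297%, 0.0223% and 0.0330% to 0.00166%, 0.00374% and 0.00589% (log2 fold change -2.23, SE 0.77, adjusted p = 0.0158). The latter call was lost without day 0 17A (adjusted p = 0.0529). TRCN0000287537 was called higher at 1.00 (adjusted p = 0.0153), but its shares of 0.279%, 0.258% and 0.413% overlapped the 0.285%, 0.209% and 0.333% of day 0. It was lost without day 0 17A or 17B (adjusted p up to 0.0852), and its sign turned to -0.15 with the deposited values.

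In the remaining group 3 of 13 hairpins rose and 2 fell in culture, beside 28.8% higher and 31.9% lower over all pools. TRCN0000239115 against C77370 took 12.0%, 12.1% and 8.86% (log2 fold change 1.76, SE 0.15, limma adjusted p = 9.17e-10) and TRCN0000239116 took 0.190%, 0.364% and 0.264% (log2 fold change -1.84, SE 0.29, adjusted p = 1.48e-05), beside 1.96 and -1.28 in lungs. TRCN0000252353 against Prr12, the most common hairpin at day 0 on average, rose from 6.68%, 6.80% and 5.98% to 12.1%, 11.2% and 11.0% (log2 fold change 1.63, SE 0.12, adjusted p = 1.97e-10). TRCN0000252350 against Prr12 rose by 1.34 on the log2 scale (SE 0.15, adjusted p = 1.18e-07), a call lost with the deposited values (0.19, adjusted p = 0.227). The third Prr12 hairpin, TRCN0000252349, at 1.08, missed the threshold (adjusted p = 0.0507). It passed with edgeR (adjusted p = 0.0235) but was at 0.27 by pool total and -0.06 with the deposited values. TRCN0000246366 against Ccdc63 fell (log2 fold change -1.58, SE 0.38, adjusted p = 0.00127). None of the Ccdc141 hairpins was called on the TMM scale, including TRCN0000269175, which took 4.10%, 2.74% and 2.45% of the cultures after 6.22%, 6.91% and 6.16% (log2 fold change -0.28, adjusted p = 0.166). By pool total TRCN0000269175, TRCN0000269176 and TRCN0000269177 were called lower, at -1.09, -0.82 and -1.05 (adjusted p = 4.93e-05, 0.00504 and 0.000735). The deposited values called these and TRCN0000283915 lower (adjusted p up to 0.0293).

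Tumour growth in the lung was also set directly against growth in culture. Here 5 of 54 hairpins differed (9.26%, beside 24.9% over all pools), 3 higher and 2 lower in lungs, where 11.6% were higher and 13.3% lower over all pools. By share of pools with both arms, pool 17 ranked 3 of 17 from the lowest in calls, as it did for lungs against day 0. The hairpins higher in lungs were TRCN0000295652 against Dctn4, TRCN0000239423 against Cramp1l and TRCN0000238672 against Chd7, and those lower were TRCN0000288305 against Nt5e and TRCN0000246814 against Nup133. With shares of the pool total the split was 5 higher and 1 lower, beside 27.2% called over all pools (12.1% higher and 15.1% lower). EdgeR called 6 hairpins (11.1%, beside 25% over all pools). TRCN0000287544 against Myst4 missed the threshold with limma (log2 fold change 1.69, adjusted p = 0.0533) and passed with edgeR (adjusted p = 0.0397) and under the 3 other scalings (adjusted p = 0.0303, 0.0379 and 0.0108); with 1 library left out it was called in 2 of 6 fits. TRCN0000287536 against Ndufb2 also missed it (log2 fold change 4.04, adjusted p = 0.0619), with 0.0677%, 0.0247% and 0.134% in lungs, all above the 0.00166%, 0.00374% and 0.00589% of the cultures. It passed with edgeR (adjusted p = 0.0420), by pool total (0.0477) and with DESeq2 size factors (0.0495) but not with the deposited values (0.0556), and was called without lungs 17A or 17B among the 6 fits with 1 library left out. The median change was -0.43 on the TMM scale and -0.33 by shares of the pool total. Shares did not overlap for 17 hairpins (31.5%, beside 41.1% over all pools), 10 above and 7 below, beside 18.1% above and 22.9% below over all pools.

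For Dctn4, TRCN0000295652 had a log2 fold change of 2.39 between lungs and culture (SE 0.48, limma adjusted p = 0.00181). This hairpin rose in mice and on the TMM scale was not called in culture. By pool total and by the deposited values it was called lower in culture, at -0.82 and -1.16. For Cramp1l the same hairpin was called in opposite directions against day 0, and TRCN0000239423 differed by 2.30 (SE 0.47, adjusted p = 0.00201), at a mean of 8.29% ± 0.23 in lungs and 1.56% ± 0.12 in culture (SD, n = 3). TRCN0000238672 against Chd7 was called lower in culture, stood at 0.172%, 0.932% and 0.480% in lungs, and differed by 2.83 (SE 0.72, adjusted p = 0.00772). TRCN0000288305 against Nt5e, the leading hairpin of the cultures, was lower in lungs by a log2 fold change of -2.38 (SE 0.48, adjusted p = 0.00165), at 4.89% ± 2.09 against 22.1% ± 0.49 (SD, n = 3). These 4 calls held under each of the 3 other scalings, with edgeR and without any single library. The fifth, TRCN0000246814 against Nup133 (log2 fold change -5.50, SE 1.79, adjusted p = 0.0349), was lost without culture 16/17A or 16/17C or without lungs 17A or 17B (adjusted p 0.113, 0.115, 0.149 and 0.126), and with edgeR (-2.53, adjusted p = 0.287), the DESeq2 test (-2.40, adjusted p = 0.196), pool total scaling (adjusted p = 0.0648) and the deposited values (adjusted p = 0.0576). With both lungs 17A and culture 16/17A left out, the libraries with the most pool 10 reads, the other 4 remained called. The total number of calls was 8 without lungs 17A and 10 without lungs 17B.

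Hairpins against the same gene often differed. Among the 18 genes with 2 or more hairpins, 10 had at least 1 call in lungs against day 0 (55.6%, beside 61.1% of gene sets in other pools). In 3 of them (C77370, Cramp1l and Dctn4) hairpins were called in opposite directions, and in none were all hairpins called in 1 direction. In culture 16 of the 18 had a call (88.9%, beside 84.4% in other pools), 4 had opposite calls (C77370, Chd7, Cramp1l and Ndufb2), and 2 had all hairpins called 1 way (Pbrm1 lower and Lrrtm4 higher, the latter with the reversal by scaling given above). Such genes made up 11.1% of the 18 in culture and 0% in lungs, beside 11.9% and 2.46% in the other pools, so neither count was particular to pool 17. Log2 fold changes had 1 sign over all hairpins of a gene for 7 of 18 genes in lungs against day 0 (38.9%, beside 34.7% of 285 gene sets in other pools) and for 9 of 18 in culture (50%, beside 40.4% of 302). Opposite calls made up 16.7% of genes in lungs and 22.2% in culture, beside 13.0% and 29.8% in the other pools. In culture those of Chd7 and Ndufb2 rested on the rises of TRCN0000238673 and TRCN0000287537. Neither rise passed by pool total (limma adjusted p = 0.654 and 0.651), and both turned negative with the deposited values. Genes with 1 sign throughout in lungs were Ccdc141, Ccdc63, Golt1b, Nup133 and Pbrm1, all negative, and Prr12 and Vgll4, both positive, with at most 1 hairpin of each called. These signs are those of the TMM scale with limma. By pool total TRCN0000252349 and TRCN0000252353 of Prr12 turned to -0.41 and -0.13 and TRCN0000250411 of Vgll4 to -0.10. With edgeR TRCN0000269175 of Ccdc141 turned to 0.76 and TRCN0000246815 of Nup133 to 0.02, whereas Ccdc63, Golt1b and Pbrm1 stayed negative under pool total, the other scalings and edgeR.

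For 11 of the 21 genes the library placed 19 further hairpins in other pools, whose values come from the libraries titled for those pools. Pool 16 was measured in the same culture libraries as pool 17. Vgll4 had further hairpins called in the direction of a pool 17 hairpin. Its pool 9 hairpins TRCN0000173136 and TRCN0000175905 rose in culture by 1.15 and 2.27 on the log2 scale (limma adjusted p = 9.86e-06 and 1.22e-08), as TRCN0000250410 but not TRCN0000250411 did in pool 17, and the first also rose in lungs by 1.67 (adjusted p = 0.0248). The second, TRCN0000175905, was not called in lungs against day 0 (0.66, adjusted p = 0.0612) and was lower in lungs than in culture, at -1.89 (adjusted p = 4.35e-05). For Nt5e the further hairpins went opposite to the pool 17 hairpin. In pool 8 the hairpins TRCN0000080814 and TRCN0000080816 fell in culture, at -1.42 and -2.65, and in lungs, at -2.33 and -1.88 (adjusted p between 0.000884 and 0.0285), against the rise of 2.59 in culture for the pool 17 hairpin. Pbrm1 differed as well: TRCN0000081820 of pool 11 and TRCN0000081822 of pool 12 were called higher in culture, at 0.36 and 1.67 (adjusted p = 0.0211 and 3.57e-08), where both pool 17 hairpins fell. Both were lower in lungs than in culture, at -1.63 and -1.62 (adjusted p = 0.0154 and 0.00214), and had values of -1.35 and -0.09 in lungs against day 0 that did not pass.

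The other shared genes gave mixed values. Lrrtm4 hairpins TRCN0000217133 and TRCN0000217849 of pool 11 fell in culture, at -1.75 and -0.31 (limma adjusted p = 1.79e-13 and 0.0413), opposite to the calls of both pool 17 hairpins. Xirp2 hairpins of pool 11 were called in opposite directions in culture, TRCN0000215801 at 1.70 and TRCN0000217527 at -0.73, and the first also rose in lungs by 2.21 (adjusted p = 0.00017). TRCN0000039339 against Myst4 in pool 9 rose in culture by 1.88 (adjusted p = 4.56e-08), opposite to the pool 17 hairpin. TRCN0000090126 against Dctn4 in pool 11 was called higher in culture, at 0.57 (adjusted p = 0.00191), and had a value of -0.07 in lungs against day 0. Golt1b in pool 12 was called higher in culture, at 0.43 (adjusted p = 0.00426). For Ccdc63 in pool 11, TRCN0000216412 fell in culture by 1.14 on the log2 scale (adjusted p = 8.78e-06) and TRCN0000192958 fell in lungs by 0.90 (adjusted p = 0.0187), the same direction as TRCN0000246366. All 4 Ccdc63 hairpins of pools 17 and 11 had negative values in both arms, with 1 of each pool called in each. TRCN0000104172 against Mrps7 in pool 10 rose in culture by 1.05 (adjusted p = 8.49e-07), and TRCN0000234196 against Klf6 in pool 16 rose in lungs by 1.91 (adjusted p = 0.0266).

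Both Klf6 hairpins were too rare for a clear reading. They started at 0.00414% ± 0.00292 and 0.00125% ± 0.00122 (SD, n = 3), the lowest shares of the pool. TRCN0000218960 had 18, 136 and 40 reads at day 0 and 23, 0 and 35 in lungs; the 0 in lungs 17B allows a share of up to 8.09e-05%. Neither Klf6 hairpin passed in any comparison, and their differences were not detectable at this depth and spread. The next lowest starting shares were those of TRCN0000225859 and TRCN0000218037 against Nav3, at 0.00998% ± 0.00211 and 0.0157% ± 0.00933. All 54 hairpins had a mean of at least 10 reads and entered every main limma test. DESeq2 gave no adjusted p for TRCN0000246366 against Ccdc63 in lungs against culture.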

How the data were processed

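Short hairpins were counted in genomic DNA of 158 samples of the series, 9 of them with pool 17. The deposited tables give a normalised read signal for each hairpin, made by the authors; reads were aligned with BWA 0.5.9, per the submitters' processing notes, and how they were counted and scaled is not given in the sources used here. The smallest deposited signal of a library was taken as 1 read and all its values were divided by it, and 27241 of 27241 values (100%) came out whole within 0.01 reads. A hairpin that is not listed was taken as 0 reads. All values of 10 libraries of other pools were missing and were not used.

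Reads of a pool's own hairpins were turned into CPM with TMM factors (edgeR 4.0.16), and log2(CPM + 1) was tested with limma 3.58.1 (R 4.3.3, trend and robust) per pool, with only the groups compared in the fit, a mean of at least 10 reads and Benjamini-Hochberg adjustment over the hairpins of all pools, at a threshold of 0.05. The scale understates changes of rare hairpins. Because the deposited unit is a scaled signal, count tests on the recovered reads (edgeR's quasi-likelihood test and DESeq2 1.42.0) were alternatives, and edgeR called 10 hairpins in lungs against day 0, 29 in culture against day 0 and 6 in lungs against culture. Steps were tested on simulated data. Other alternatives changed the scaling (pool total, DESeq2 size factors, deposited values), pseudocount, filter, variance model and samples. Effective numbers were compared by exact permutation tests.

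Gene symbols are those of the deposited tables; 20 of 21 genes were matched by transcript accession and Chd7 by symbol to RefSeq genes of GRCm38.p6, for names only. Every gene of the pool could be named. Values in each library are given for the 6 called hairpins with the largest rise and the 6 with the largest fall in each comparison, for genes with all hairpins called 1 way or in opposite directions, and for the 3 hairpins with the largest mean share in each group; others are given where a result needs them. The members, gene groups and rules were chosen with earlier results of these data known.

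Libraries share letters across groups. Deviations from the group means of same-letter libraries correlated at 0.10, 0.18 and 0.20 between culture and day 0, above the limit of 0.1 used for pairing, at -0.20, -0.16 and -0.16 between lungs and day 0, and at -0.05, 0.14 and 0.19 between lungs and culture, so only culture against day 0 met it. All values given are from the fit without the letter as a block; the block was an alternative in each comparison, and in culture against day 0 it kept all 29 calls. The labels do not say that a letter marks a shared culture.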

Additional observations from a re-analysis of the deposited data

Results flagged for a closer look

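Reads of hairpins from other pools made up 18.7% of lungs 17A, 3.16% of lungs 17B and 15.3% of culture 16/17A, above the day 0 libraries, where the highest share was 0.972%. They were left out of every share.

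In 5 hairpins the change from day 0 differed between lungs and culture by a direct test (limma, adjusted p under 0.05). The log2 difference, lungs minus culture, was 2.83 for TRCN0000238672 against Chd7, 2.30 for TRCN0000239423 against Cramp1l, 2.39 for TRCN0000295652 against Dctn4, -2.38 for TRCN0000288305 against Nt5e and -5.50 for TRCN0000246814 against Nup133. The Nup133 call was lost with edgeR (adjusted p = 0.287), the DESeq2 test (0.196), pool total scaling (0.0648), the deposited values (0.0576), no trend and no robust estimation (0.077) and without 4 of the 6 libraries. The groups have 3 libraries each, too few for a test of single outlying libraries.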

How the results depend on the processing

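The number of hairpins called in lungs against day 0 was 14, and 23 with the DESeq2 test (14 higher and 9 lower), 9 without trend and robust estimation and 4 to 18 with 1 library left out. In culture against day 0 it was 29, and 19 with all 3 arms in 1 fit and 26 to 36 with 1 library left out. In lungs against culture it was 5, and 8 with the DESeq2 test, 10 with all 3 arms in 1 fit, 4 to 10 with 1 library left out and 7 without both lungs 17A and culture 16/17A, an alternative chosen after seeing the data. With the replicate letter as a block the counts were 10, 32 and 7. All 29 culture calls and all 5 calls against culture were kept, and 7 of the 14 lung calls. With all 3 arms in 1 fit 10 of the 29 culture calls were lost (limma adjusted p from 0.0560 to 0.386). Among them were TRCN0000246814 (Nup133), TRCN0000251410 (Xirp2), TRCN0000246366 (Ccdc63) and TRCN0000287535 (Ndufb2). Of the 29 hairpins called in culture 4 reversed: with the deposited values TRCN0000238673 (Chd7) was at -0.19, TRCN0000239424 (Cramp1l) at -0.13, TRCN0000287537 (Ndufb2) at -0.15 and TRCN0000250009 (Lrrtm4) at -0.52, the last also at -0.18 by pool total. Some hairpins not called turned too, such as TRCN0000239114 (C77370), from 0.36 to -0.45 by pool total (limma adjusted p = 0.0141). The cause was not tested; fewer samples enter the fits with a library left out. Effective-number differences kept their sign, from -0.75 to -0.43 for lungs and -0.89 to -0.80 for culture against day 0 and 0.10 to 0.42 for lungs against culture with 1 library left out. Over the 16, 22 and 8 hairpins chosen by the naming rule, 218 of 288, 368 of 396 and 137 of 152 values kept direction and side of the threshold over the alternatives, in the order of the comparisons above. TRCN0000305016 (Golt1b), outside that rule in lungs against day 0, lost its call with edgeR, a pseudocount of 100, no trend and no robust estimation, the block and each left-out library except lungs 17B (adjusted p from 0.0502 to 0.153). Low reads limit the Klf6 hairpins throughout and, in single lungs, TRCN0000287535 (Ndufb2, 4 reads), TRCN0000246815 (Nup133, 5), TRCN0000246364 (Ccdc63, 7) and TRCN0000246814 (Nup133, 10 and 24). With a pseudocount of 100, TRCN0000283915 (Ccdc141) went from -3.33 to -1.51 in lungs against day 0.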
